A study of Mus musculus with 29 samples.

Results

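The disease-associated microglia genes are a set of 10 genes, Apoe, Lpl, Trem2, Tyrobp, Axl, Clec7a, Itgax, Cst7, Spp1 and Gpnmb, out of 21993 annotated mouse genes. They were chosen by name, and every deposited peak that overlapped a gene body extended by 20 kb on each side was taken; this stretch is called the gene's window. The 10 windows were 43.1 to 74.4 kb long and held 606 distinct peak regions of the 1008665 in all 25 lists. IRF8 lists gave 133 of them, PU.1 lists 49, H3K27ac lists 208 and H3K4me1 lists 216. The study mapped chromatin proteins in female mice by CUT&RUN, in which an antibody tethers a nuclease to a protein and the DNA cut free around it is sequenced. IRF8 was mapped through its EGFP tag, with an antibody against GFP, in mice of the IRF8-EGFP strain: 4 libraries of microglia at postnatal day 9 (P9), 3 at postnatal day 14 (P14), 3 from adults (3 months old, per the growth protocol, as were the WT and KO mice), and 3 of peritoneal macrophages. In adult microglia of wild-type (WT) mice and of the IRF8KO strain (KO), the targets were PU.1, H3K27ac and H3K4me1, each in 2 libraries per genotype. Brain microglia were isolated without enzymes and sorted. The sources used here do not say how the knockout was made, no expression was measured, and IRF8 was not mapped in KO cells, so these lists hold no check of the knockout. The labels do not say that the libraries of a group came from separate animals, so each p-value measures only the spread between libraries.

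Microglia are the resident macrophages of the brain. Around amyloid plaques, in demyelination and in ageing they lower genes typical of the resting, or homeostatic, state and raise a shared set of genes for lipid handling, phagocytosis and lysosomal function, and the later steps of that change depend on the lipid receptor TREM2 and its adaptor TYROBP. IRF8 and PU.1 are transcription factors of the myeloid lineage: PU.1 binds ETS motifs, and IRF8 binds DNA weakly alone and more firmly with a partner such as PU.1 at a composite ETS-IRF motif. H3K27ac marks active promoters and enhancers, and H3K4me1 marks enhancers whether active or poised.

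The sequences that follow are sites discussed below, and a marked motif does not mean that the stretch was bound. The lines for Trem2, Itgax, Axl, Apoe and Tyrobp give 200 bases around the strongest adult IRF8 summit in the window. Clec7a is shown by the 250 bases before its annotated start, which lie within its strongest IRF8 region, and Spp1 by the same stretch before its own start, both from RefSeq on build GRCm38.p6. Over the Spp1 promoter entry (chr5:104434861-104435160) no IRF8 or PU.1 library listed a peak. H3K27ac was listed there in 1 WT and 0 KO libraries. The last line gives 200 bases around the summit of a PU.1 region upstream of Apoe that was listed in KO microglia only; this site and the Clec7a and Spp1 promoters were singled out after their values were seen. Capitals mark the ETS core GGAAGT, the letters TTTCATTTCC (the composite ETS-IRF motif, GGAA and GAAA with 2 bases of any kind between them, read on the other strand) and TTTCCTTTTC (the interferon-response-like motif, GAAA repeated with 2 bases of any kind between, read on the other strand).
Trem2 site, chr17:48347522-48347721, plus strand: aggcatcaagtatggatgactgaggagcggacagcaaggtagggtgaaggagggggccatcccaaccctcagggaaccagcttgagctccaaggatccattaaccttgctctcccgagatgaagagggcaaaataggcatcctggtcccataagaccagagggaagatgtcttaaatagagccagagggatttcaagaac
Itgax site, chr7:128129022-128129221, plus strand: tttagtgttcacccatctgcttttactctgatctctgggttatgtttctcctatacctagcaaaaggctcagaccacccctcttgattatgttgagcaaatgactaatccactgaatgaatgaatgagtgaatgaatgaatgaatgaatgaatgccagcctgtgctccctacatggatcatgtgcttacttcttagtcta
Axl site, chr7:25776759-25776958, plus strand: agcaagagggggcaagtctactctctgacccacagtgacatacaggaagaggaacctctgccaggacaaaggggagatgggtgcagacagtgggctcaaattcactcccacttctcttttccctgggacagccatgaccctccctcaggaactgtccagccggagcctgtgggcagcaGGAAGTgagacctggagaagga
Apoe site, chr7:19715582-19715781, plus strand: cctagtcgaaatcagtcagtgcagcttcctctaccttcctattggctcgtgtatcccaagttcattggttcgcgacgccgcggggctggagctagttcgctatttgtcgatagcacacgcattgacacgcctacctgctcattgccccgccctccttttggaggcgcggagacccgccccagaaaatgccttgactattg
Tyrobp site, chr7:30412911-30413110, plus strand: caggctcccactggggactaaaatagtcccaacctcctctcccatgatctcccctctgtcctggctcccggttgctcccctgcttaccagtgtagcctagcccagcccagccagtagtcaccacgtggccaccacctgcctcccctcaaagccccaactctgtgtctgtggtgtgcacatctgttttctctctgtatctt
Clec7a promoter, chr6:129472780-129473029, minus strand: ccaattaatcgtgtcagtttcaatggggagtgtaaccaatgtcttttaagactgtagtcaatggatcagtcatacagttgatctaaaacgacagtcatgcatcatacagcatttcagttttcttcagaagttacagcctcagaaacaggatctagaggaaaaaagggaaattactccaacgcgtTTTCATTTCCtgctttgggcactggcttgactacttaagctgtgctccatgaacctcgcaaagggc
Spp1 promoter, chr5:104434861-104435110, plus strand: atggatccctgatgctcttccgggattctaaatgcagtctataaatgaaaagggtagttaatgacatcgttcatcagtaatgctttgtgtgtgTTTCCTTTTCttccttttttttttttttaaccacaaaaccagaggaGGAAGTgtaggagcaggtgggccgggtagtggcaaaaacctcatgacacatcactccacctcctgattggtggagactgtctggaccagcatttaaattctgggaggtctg
Apoe KO PU.1 site, chr7:19699850-19700049, plus strand: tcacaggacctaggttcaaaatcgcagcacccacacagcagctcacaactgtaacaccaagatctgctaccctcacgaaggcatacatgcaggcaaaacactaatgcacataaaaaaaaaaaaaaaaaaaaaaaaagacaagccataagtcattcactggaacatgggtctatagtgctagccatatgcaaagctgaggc

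Each of these motifs was searched on both strands; the composite motif and the ETS core can overlap. Within 100 bases of the strongest summit, the composite motif was found in 0 of the 15 adult IRF8 regions in the windows and in 3.14% of all 16934 adult IRF8 regions. The interferon-response-like motif was found in 0 of 15, against 3.02% of all. The ETS core was found in 4 of 15 (26.7%, exact 95% interval 7.79 to 55.1%), against 18.4% of all. The promoter table held entries for 8 of the 10 genes (12 entries), and in it Clec7a alone had the composite motif and Spp1 alone the interferon-response-like motif. Over 32851 promoters of 300 bases, 2.72% held the composite motif, 3.44% the interferon-response-like motif and 23.8% the ETS core.

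The lists came from libraries of 7.25 to 24.7 M (mega) fragments. Distinct IRF8 regions numbered 1168 to 2068 per library at P9, 7931 to 19243 at P14, 17048 to 29667 in adult microglia and 9788 to 23163 in macrophages. KO H3K27ac replicate 2 stood apart, with 8.57 M fragments and 31524 regions, against 72354 to 88400 regions in the other 3 H3K27ac libraries. A list holds only what passed the authors' threshold, so a gene without a region had none listed there, which is not a measured zero. The fold enrichments below are the authors' own values over an IgG control library, and those controls differed between P9, P14, adult and macrophage libraries; folds are therefore described within a group. Of 5 microglia and macrophage markers, 4 and 5 had an H3K27ac region within 1 kb of a start in the WT libraries and 2 and 2 in the KO libraries. Tmem119, Cx3cr1 and Aif1 were the markers without one in either KO library. Among 4 markers each, neuron markers had 0, 1, 0 and 0 such regions (WT 1, WT 2, KO 1, KO 2), astrocyte markers 2, 2, 1 and 1, oligodendrocyte markers 1, 1, 0 and 0, and B cell markers 0, 1, 2 and 0. Shares of other cells and less signal per cell cannot be told apart in such bulk libraries, and their part in the results was not tested.

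The stage comparison asked at which age IRF8 was found near these genes. Peak regions of a group's libraries were merged, and a merged region that 2 or more of these libraries listed is called a consensus region. At P9, 2 of the 10 genes had an IRF8 consensus region in the window, Trem2 and Axl, against 6.99% of all gene windows. By P14 Apoe, Tyrobp and Itgax had joined them, making 5 of 10 against 31.9%. In adult microglia 8 of 10 had one, all but Lpl and Cst7, against 50.5%. Clec7a, Spp1 and Gpnmb rested on adult replicates 1 and 2: without either of these, 5 of 10 had one, the genes seen at P14, against 39% and 34% of windows. Peritoneal macrophages had one at 6 of 10, Apoe, Lpl, Trem2, Tyrobp, Axl and Clec7a, against 39.8%.

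Two-sided exact permutation tests of a Jonckheere-Terpstra trend in the number of regions per window, over P9, P14 and adult libraries, were run on 13429 gene windows and adjusted over all of them by the Benjamini-Hochberg method. The statistic is the number of library pairs of different ages in rising order minus the number in falling order, at most 33. Of the 9 member genes tested, 3 rose, Apoe, Tyrobp and Axl, and none fell; over all windows 60.9% rose and 0 fell. The members' share was below that of all windows in this fit, a difference that was not tested. Without P9 replicate 2 it was 2 of 9 members against 12.4% of all windows. At an unadjusted p under 0.05, 5 members rose, against 64.1% of windows. The number of regions listed in a whole library rose along the same axis and the IgG control changed with it, so age and control cannot be told apart, and the part of the region total was not tested. The calls changed when 1 library was left out: Tyrobp alone was called without P9 replicate 1, 3 or 4. Tyrobp and Axl were called without P9 replicate 2, and Apoe alone without adult replicate 2. In these fits 12.4 to 25.9% of all windows were called. Fits without a P9 library had 1680 assignments rather than 4200. Their smallest adjusted p over all windows was 0.0358 to 0.0399, against 0.0123 with all libraries (exact permutation). With ages exchanged only among libraries of the same replicate number (a replicate block), 0 members and 0 windows were called. Without adult replicate 3, Clec7a and Spp1 were called as well, when 76.5% of all windows were. With only peaks of −log10 p of at least 10, Axl and Itgax were called (32.1% of all windows), and with windows of 5 kb, Tyrobp and Axl (48.9%).

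**Figure D1:**
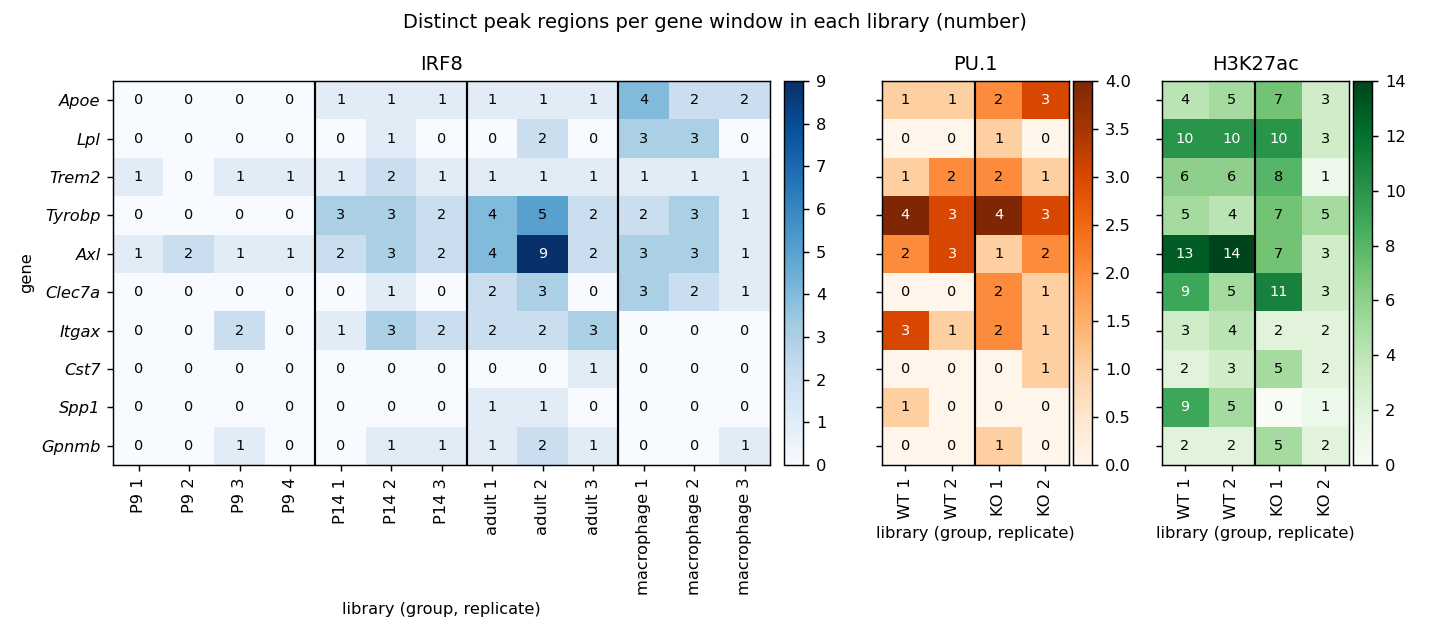
Number of distinct peak regions in each gene's window (rows) in each library (columns, grouped by stage or genotype) for IRF8, PU.1 and H3K27ac; colour and printed digit give the number, with its own colour scale for each target. Trem2 and Axl are the genes with IRF8 regions in most P9 libraries, Itgax has none in any macrophage library, and Spp1 has 9 and 5 H3K27ac regions in WT against 0 and 1 in KO.

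Among the lipid genes, Apoe (ENSMUSG00000002985.16, chr7:19696109-19699188, minus strand) encodes the main lipid-carrying apolipoprotein of the brain. Its window had 0 IRF8 regions in all 4 P9 libraries, 1 in each of the 3 P14 and the 3 adult libraries, and 4, 2 and 2 in the macrophage libraries. The rise was called (trend statistic 24, exact permutation p = 0.00476, adjusted p = 0.0193), as it was in 60.9% of all windows tested. The adult region, chr7:19715480-19716039, was not at Apoe itself: its summit was at -16494 bp from the Apoe start and at -244 bp from the start of Tomm40, a mitochondrial import gene, so which of the 2 genes it belongs to cannot be told from the lists. Its fold was 7.02, 8.27 and 3.56 in the P14 libraries, 6.72, 7.43 and 9.12 in the adult ones and 6.30, 3.77 and 3.12 in macrophages. Macrophages had a further region with folds of 5.46, 7.34 and 5.51, listed in all 3 libraries, at chr7:19683996-19684398, 15080 bp downstream of the Apoe start and nearest to Apoc4, another apolipoprotein gene. No adult consensus region overlapped it.

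Lpl (ENSMUSG00000015568.16, chr8:68880491-68907448, plus strand), which encodes lipoprotein lipase, had 0 IRF8 regions in every P9 library, 0, 1 and 0 at P14 and 0, 2 and 0 in adult microglia. The trend was not called (statistic 9, exact permutation p = 0.3, adjusted p = 0.325). Macrophage libraries had 3, 3 and 0 regions, which gave consensus regions at 34499 bp (folds 4.12 and 6.73) and 46107 bp (12.9 and 11.5) from the Lpl start, beyond the end of the gene. The farther one ranked high in its lists by strength, at a mean percentile of 96.6. Both overlapped H3K27ac regions of WT microglia, where IRF8 had no consensus region.

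Of the receptors, Trem2 (ENSMUSG00000023992.14, chr17:48346401-48354147, plus strand) senses lipids and lipoproteins. Its window had 1, 0, 1 and 1 regions at P9, 1, 2 and 1 at P14 and 1 in each adult and each macrophage library, and the trend was not called (adjusted p = 0.540, exact permutation). The site, with an adult summit 1221 bp inside the gene, was the strongest of the 15 adult regions within its lists, at a mean percentile of 97.9. Its fold was 6.57, 9.29 and 5.96 in the 3 P9 libraries that listed it. At P14 the values were 9.43, 10.3 and 5.17, in adult microglia 19.7, 21.3 and 14.1, and in macrophages 9.49, 7.11 and 3.33. It was listed in 12 of the 13 IRF8 libraries, as was the Axl intronic site.

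Tyrobp (ENSMUSG00000030579.10, chr7:30413760-30417585, plus strand), the adaptor through which TREM2 signals, had 0 regions in all P9 libraries, 3, 3 and 2 at P14 and 4, 5 and 2 in adults. The rise was called (statistic 28, exact permutation p = 0.00214, adjusted p = 0.0149), although adult replicate 3 was no higher than P14 replicate 3. Of its 4 adult regions, 1 lay at -749 bp from the start, with folds of 11.9, 10.3 and 7.04. The others lay at -18954, 2813 and 5991 bp, the last at the start of Hcst, the gene of a related signalling adaptor. Macrophage libraries had 2, 3 and 1 regions.

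Axl (ENSMUSG00000002602.16, chr7:25757273-25788705, minus strand), a receptor tyrosine kinase for the uptake of dying cells, had IRF8 in every microglial library. The numbers were 1, 2, 1 and 1 at P9, 2, 3 and 2 at P14 and 4, 9 and 2 in adults (statistic 26, exact permutation p = 0.00476, adjusted p = 0.0193). Adult replicate 2, the deepest of the 25 libraries, was the highest. An intronic site 11846 bp from the start was shared by all of them, with folds of 4.04, 4.49, 6.02 and 6.75 at P9, 10.0, 19.4 and 7.61 at P14 and 9.01, 14.2 and 14.1 in adults. Macrophage replicates 1 and 2 listed it at 7.62 and 7.77 and replicate 3 did not. A further region at 33640 bp was beyond the end of Axl, just upstream of Hnrnpul1, an RNA-binding protein gene. Another adult region, chr7:25785805-25787731, lay inside Axl near its start, with folds of 5.45 and 4.89 in adult replicates 1 and 2.

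Clec7a (ENSMUSG00000079293.11, chr6:129461591-129472779, minus strand), the beta-glucan receptor Dectin-1, had 0 regions at P9, 0, 1 and 0 at P14, 2, 3 and 0 in adults and 3, 2 and 1 in macrophages. Its promoter region, with the adult summit at -214 bp, had folds of 9.34 and 11.7 in adult replicates 1 and 2 and no peak in replicate 3. All 3 macrophage libraries listed it, at 4.57, 6.73 and 5.91. The trend was not called (adjusted p = 0.0892, exact permutation) but was without adult replicate 3 (0.0327).

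Itgax (ENSMUSG00000030789.9, chr7:128129547-128150657, plus strand), the integrin subunit CD11c, had IRF8 in every P14 and adult library and in no macrophage library. Its window had 0, 0, 2 and 0 regions at P9, 1, 3 and 2 at P14, 2, 2 and 3 in adults and 0 in each macrophage library. The promoter region, at -425 bp, had folds of 16.1, 15.7 and 8.84 in adults and 9.58, 8.67 and 4.10 at P14, and P9 replicate 3 listed it at 6.76. The trend missed the threshold (adjusted p = 0.0629, exact permutation). It passed in 2 of the alternatives, the stricter peak threshold (0.0366) and the fit without P14 replicate 2 (0.0428).

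Cst7 (ENSMUSG00000068129.5, chr2:150570415-150578944, plus strand), the protease inhibitor cystatin F, had 1 region, in adult replicate 3, and 0 in the other 12 IRF8 libraries, so it had too few for the trend test. Spp1 (ENSMUSG00000029304.14, chr5:104435118-104441050, plus strand), which encodes the secreted phosphoprotein osteopontin, had 1, 1 and 0 regions in adults and 0 elsewhere. Its region lay at -9013 bp, with folds of 4.15 and 5.87 (adjusted p = 0.0892, and 0.0428 without adult replicate 3, exact permutation). Gpnmb (ENSMUSG00000029816.10, chr6:49036546-49070929, plus strand), a lysosome-associated membrane glycoprotein, had 0, 0, 1 and 0 regions at P9, 0, 1 and 1 at P14, 1, 2 and 1 in adults and 0, 0 and 1 in macrophages (adjusted p = 0.0683, exact permutation). Its adult consensus region at -19383 bp, with folds of 7.49 and 5.93, overlapped neither H3K27ac nor H3K4me1 of WT microglia.

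**Figure D2:**
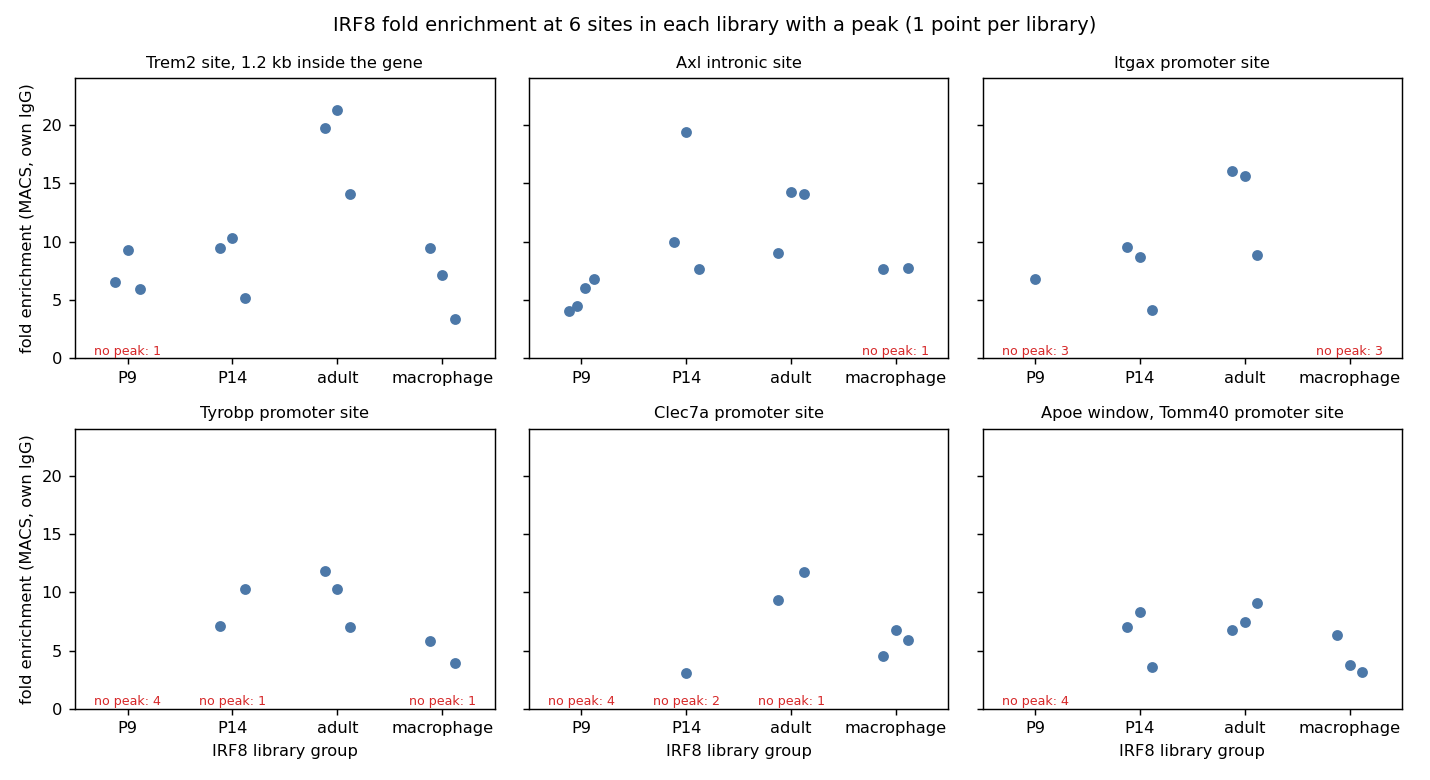
IRF8 fold enrichment given by the authors (vertical axis, over each group's IgG control) at 6 sites in the 4 IRF8 groups (horizontal axis), with 1 point per library that listed a peak and the number that did not in red. The adult Trem2 points lie between 14.1 and 21.3 and the Itgax promoter has no macrophage point; heights are not compared between groups because the controls differ.

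The comparison with peritoneal macrophages asked which of these regions belong to adult microglia. With 3 libraries against 3, the exact permutation test cannot go below p = 0.1, so nothing could be called. All adult libraries lay above all macrophage libraries at Itgax alone (2.33 ± 0.577 against 0 ± 0 regions, SD, n = 3 each, exact permutation p = 0.1), an order that 7.22% of all windows showed. Without adult replicate 3, 4 members showed it (12.8% of all windows), and without macrophage replicate 3, 2 did (8.21%). The opposite order held at Apoe alone (1 ± 0 against 2.67 ± 1.15, n = 3 each, exact permutation p = 0.1), against 1.15% of windows, and at 2 members without macrophage replicate 3 (5.17% of windows). The libraries came in 2 batches. In batch 1 (replicates 1 and 2) the adult minus macrophage difference was 2 regions at Itgax and -2 at Apoe, and in batch 2, with 1 library each, the counts were 3 against 0 and 1 against 2, so both directions held in each batch. Differences at the other genes ran from -1.33 (Lpl) to 2.67 (Axl), with exact permutation p of 0.3 to 1.

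The partners of IRF8 in adult WT microglia were then read at the 15 adult regions. PU.1 consensus regions overlapped 8 of 15 (53.3%, exact 95% interval 26.6 to 78.7%), against 27% of all adult IRF8 regions. Without adult replicate 1 or 2 it was 7 of 8 (87.5%), against 34.2% and 39.4% of all. H3K27ac overlapped 13 (86.7%) against 81.8% of all, and H3K4me1 14 (93.3%) against 91.3%. P9 consensus regions overlapped 2 of 15 (7.76% of all), P14 regions 9 (43.2%) and macrophage regions 8 (39.5%). PU.1 was at the Trem2 site, at 3 of the 4 Tyrobp regions, at the Axl intron and the Hnrnpul1 start, at the Tomm40 promoter and at 4125 bp in Itgax. It was at neither Clec7a region, nor at Spp1, Gpnmb or the Itgax promoter.

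The genotype comparison asked what became of PU.1 and the 2 histone marks without IRF8. A WT consensus region was called lost if neither KO library had a peak on it, and a KO consensus region gained if neither WT library had one. With 2 libraries against 2 no exact test can reach p = 0.05, so none was made. Intervals are exact binomial (Clopper-Pearson) and cover variation over regions, not between animals.

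None of the PU.1 regions at these genes was lost: 0 of 8 (interval to 36.9%), against 25.1% of all WT PU.1 regions. Of windows with such a region, 28.6% lost at least 1, against 0 of 5 here. The member regions were stronger than most (median percentile 80.1 against 69.7), and regions of their strength were lost at 18.7%. Without KO replicate 2, 2 of 8 were lost (35.6% of all), and without WT replicate 1 or 2, 2 of 10 (47.7% of all) or 2 of 12 (58.7%). When absence from the KO consensus was enough, 2 of 8 were lost, at Apoe and Axl (48.0% of all). Both KO libraries listed 6 of the 8. At Trem2 the WT folds were 13.6 and 7.24 and the KO folds 10.2 and 9.18, on a region around 1230 bp inside the gene. At Tyrobp all 3 regions were listed in all 4 libraries, as was the Itgax region at 4160 bp. Of the other 2, the intronic Axl region (WT folds 11.1 and 5.52) and the Tomm40 promoter region (4.07 and 8.62) had a peak in KO replicate 2 only. PU.1 replicate 2 was called at a looser threshold than replicate 1 in both genotypes.

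Gained PU.1 regions were 2 of 8 (25%, interval 3.19 to 65.1%), against 16.5% of all KO regions, and both were at Apoe. Without KO replicate 2 it was 7 of 15 (47.3% of all). Of windows with a KO PU.1 region, 19.2% gained at least 1, and here 1 of 5 did. The Apoe window had 1 and 1 PU.1 regions in WT and 2 and 3 in KO. The gained region chr7:19698730-19700015, with folds of 5.86 and 5.74, spanned the Apoe start with its summit at -762 bp, on the sequence printed above. The other, chr7:19693766-19694303, lay at 5290 bp, past the end of the gene, with folds of 4.76 and 3.44. Within 100 bases of either summit the composite motif, the interferon-response-like motif and the ETS core were each found 0 times. The ETS core was found there in 26.2% of all KO PU.1 regions. Windows with at least 2 KO PU.1 regions, all of them gained, made up 2.54% of 1261. Neither Apoe region had an IRF8 region on it in adult microglia. With PU.1 replicate 2 cut to the threshold of replicate 1, a setting chosen after seeing the data, 1 gain was left of 7 regions, the one at the Apoe start (16.7% of all), and with only peaks of −log10 p of at least 10, 0 of 5 (19.6%). Clec7a also had PU.1 peaks in KO (2 and 1) and none in WT, without a region shared by both KO libraries. Lpl, Gpnmb and Cst7 had peaks in 1 KO library each and none in WT, and Spp1 in 1 WT library and none in KO. How many of all windows show such patterns was not computed. With the KO and WT libraries of the same number compared, 53.6% (number 1) and 67.7% (number 2) of all KO regions had no WT peak.

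H3K27ac was lost at 14 of 38 regions (36.8%, interval 21.8 to 54.0%), close to the 34% over all WT regions. At least 1 was lost at 5 of the 10 genes, against 57.1% of windows that had any. The losses were uneven between genes. Spp1 lost 3 of 3, Axl 5 of 10, Apoe 2 of 4, Lpl 2 of 5 and Trem2 2 of 5, while Tyrobp (0 of 4), Clec7a (0 of 4), Itgax, Cst7 and Gpnmb (0 of 1 each) lost none. A further 13 regions had a peak in KO replicate 1 only, 0 in replicate 2 only and 11 in both. Over all WT regions, 37.3% had no peak in KO replicate 1 and 72.9% none in the shallow replicate 2. With only peaks of −log10 p of at least 10, Lpl, Trem2 and Gpnmb, with 1 region each, also lost all they had. Without KO replicate 2 the count stayed 14 of 38, and without KO replicate 1 it was 71.1%.

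Spp1 was the member with no WT H3K27ac region left. Its window had 9 and 5 H3K27ac regions in WT, covering 5581 and 4320 bp, and 0 and 1 in KO, covering 0 and 307 bp. The 3 consensus regions lay upstream at -8766, -4292 and -2149 bp, with WT folds of 8.33 and 6.22, 3.08 and 3.93, and 6.79 and 5.47. The farthest of them, chr5:104425049-104427575, held the adult IRF8 region. Windows with at least 3 WT regions, all lost, made up 2.58% of 5965. H3K4me1 in the Spp1 window was still listed in KO, with 5 and 3 regions over 6100 and 8100 bp against 3 and 5 regions over 12024 and 17280 bp in WT.

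At Axl the lost regions were mostly inside the gene, at 7170, 12012, 17244 and 19700 bp, with the fifth in an intron of Hnrnpul1. The one at 12012 bp coincided with the IRF8 site that was listed from P9 onwards (WT folds 8.02 and 5.70), while the region at the start of Hnrnpul1, also bound by IRF8, had a peak in both KO libraries. At Apoe the lost regions flanked the start, at 856 and -625 bp, and the one at -625 bp overlapped the PU.1 region that was gained. KO replicate 1 had a peak between them, across the start itself (fold 2.98), where neither WT library listed one. The H3K27ac region at -1910 bp had a peak in both KO libraries, although no KO consensus region overlapped it. At Trem2 the losses were at -9182 and -4072 bp, and the region over the IRF8 site (WT folds 7.40 and 10.5) had a peak in KO replicate 1 only. Of the 2 Lpl regions that overlapped macrophage IRF8, the one at 45759 bp was lost and the one at 32200 bp had a peak in KO replicate 1.

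**Figure D3:**
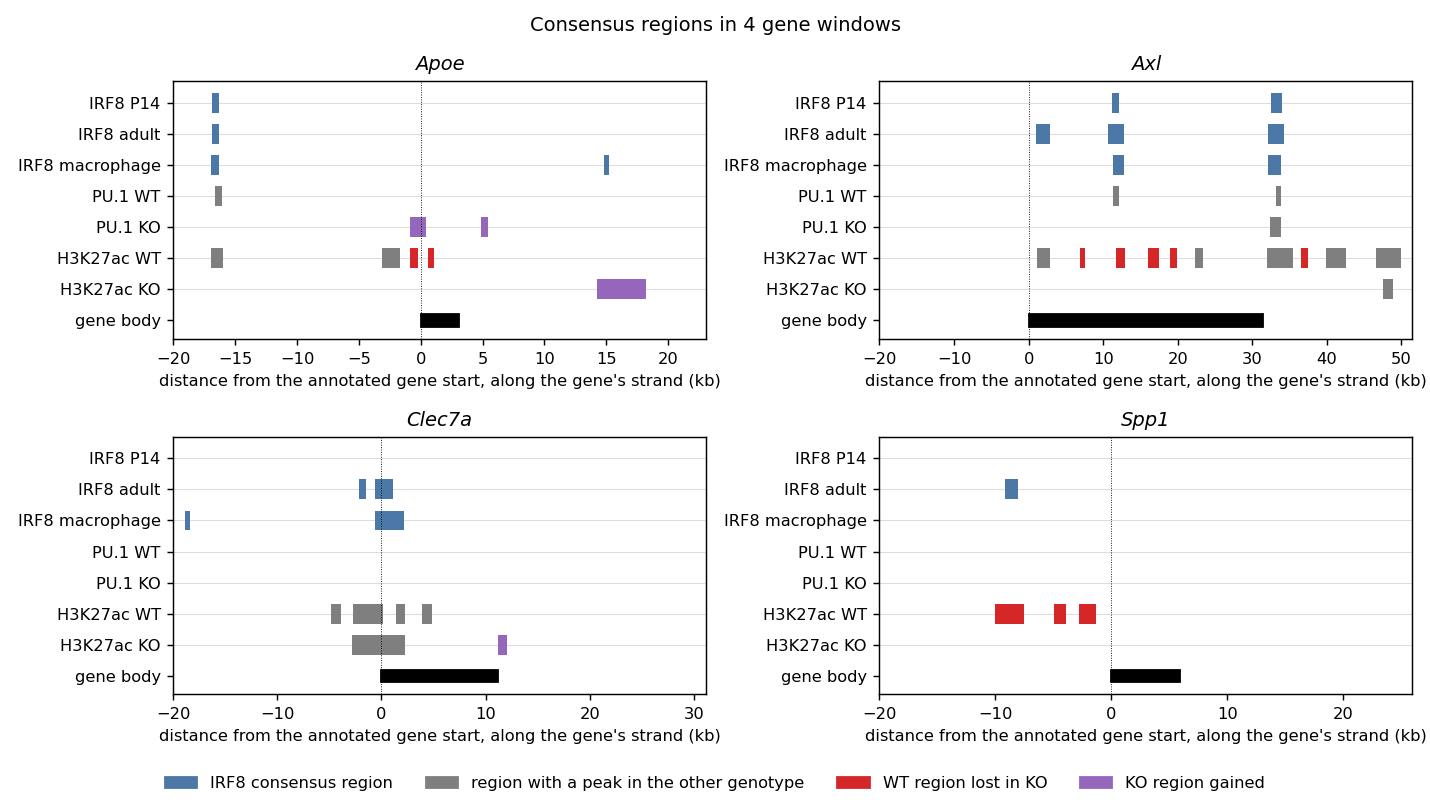
Consensus regions of each target (vertical axis) along the windows of 4 genes, as distance from the gene start in kb along the gene's strand; IRF8 regions in blue, regions with a peak in the other genotype in grey, lost in red, gained in purple, gene body in black. Axl has 5 red H3K27ac regions and Spp1 has 3, while Apoe has 2 purple PU.1 regions, 1 of them across its start.

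Weak regions were lost more often than strong ones. Ranked by the mean percentile of the authors' −log10 p within each list and cut into deciles, all WT H3K27ac regions were lost at 61.3% in the weakest decile and at 6.08% in the strongest. Regions as strong as the members' would by these shares be lost at 34.9%, against the 36.8% seen. None of the 7 member regions in the 2 strongest deciles was lost (0 of 5 and 0 of 2), where 12.4% and 6.08% of all regions were lost. With so few regions, this does not set the members apart from those shares. The strongest that were lost were the Spp1 region at -8766 bp (percentile 82.6, in a decile where 18.2% were lost), the Axl region at 12012 bp (80.5, 24.4%) and the Spp1 region at -2149 bp (74.9, 31.4%). The 4 Tyrobp regions had percentiles of 68.0 to 97.2.

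**Figure D4:**
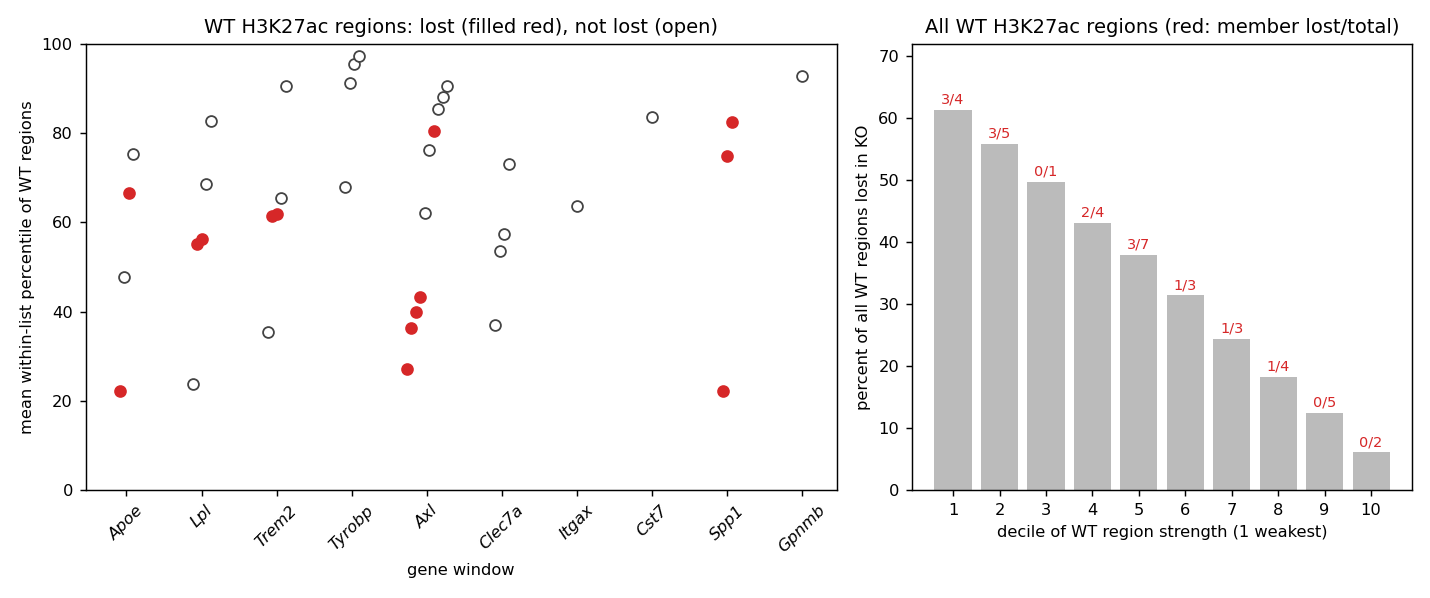
Left, mean within-list percentile (vertical axis) of each WT H3K27ac consensus region by gene window, filled red where lost and open where not; right, percent of all WT regions lost in each decile of strength, with member regions lost of total in red. Lost regions lie at percentiles of 22.1 to 82.6 and none is above.

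Loss was also read by IRF8 binding. Of 12 member H3K27ac regions that overlapped an adult IRF8 region, 2 were lost (16.7%, interval 2.09 to 48.4%), the Axl intron and Spp1, against 21% of all such regions. Of the 26 without IRF8, 12 were lost (46.2%, interval 26.6 to 66.6%), against 41.2% of all. The members thus lay near both shares of all regions.

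Gained H3K27ac regions were 3 of 12 (25%, interval 5.49 to 57.2%), against 10.9% of all KO regions. Without KO replicate 1 the share was 10 of 25 and without replicate 2 it was 28 of 62, against 55.5% and 55.9% of all. The 3 were at Apoe, Clec7a and Gpnmb, 3 of the 8 genes with a KO region, against 15.6% of such windows. With only peaks of −log10 p of at least 10, the Apoe gain alone was left (1 of 6, 8.03% of all), and with windows of 5 kb, those at Clec7a and Gpnmb (2 of 9). The Apoe region, chr7:19680996-19684965, was the strongest of them (folds 8.23 and 6.71, mean percentile 91.3), with its summit at 15010 bp, nearest to Apoc4. It contained the macrophage IRF8 region described above, an overlap that 8.41% of all gained and 29.5% of all KO H3K27ac regions had. The Clec7a region lay at 11894 bp, past the end of the gene (folds 3.78 and 5.75), and the Gpnmb region in an intron at 2661 bp (3.87 and 3.78). In each case neither WT library listed a peak there.

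H3K4me1 was the mark with the fewest changes in calls. It was lost at 0 of 29 regions (interval to 11.9%), against 13% of all WT regions, and gained at 1 of 34 (2.94%), against 23.8% of all KO regions. By window this was a loss at 0 of 10 genes (19.2% of windows) and a gain at 1 of 10 (51.2%). The gained region lay at -13953 bp from the Tyrobp start (folds 2.12 and 1.99). Member regions were stronger than most, with a median percentile of 84.2 against 72.7 over all, and regions of their strength were lost at 5.98%. These low counts need all 4 libraries: with any 1 left out, loss was 6.90 to 12.2% (all regions 19.0 to 44.1%) and gain 14.7 to 27.1% (all 32.6 to 56.0%).

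Other genes of the same programmes were read in the same way, from lists named in the processing account. In 20 further disease-associated genes H3K27ac was lost at 29 of 93 regions (31.2%, interval 22.0 to 41.6%), and in 13 homeostatic microglia genes at 19 of 80 (23.8%, interval 14.9 to 34.6%), both against the 34% of all regions. The genes with most losses were Serpine2 (8 of 12), a serine protease inhibitor, Lgals3 (5 of 6), the lectin galectin-3, Ctsl (3 of 7), a lysosomal protease, and Cd68 (3 of 4), a lysosomal glycoprotein; Cd9, a tetraspanin, also lost 3, of 12. Among homeostatic genes they were Sall1 (5 of 5), a transcription factor of microglial identity, Cx3cr1 (4 of 12), the fractalkine receptor, Olfml3 (3 of 5), a secreted protein, and Tmem119 (3 of 6), a surface marker. PU.1 was lost at 3 of 23 further and at 11 of 32 homeostatic regions (34.4%, interval 18.6 to 53.2%), against 25.1% of all regions. At the members it was 0 of 8, where regions of their strength were lost at 18.7%. PU.1 was gained at 4 of 15 further and 1 of 22 homeostatic regions, against 16.5% of all. H3K4me1 was lost at 1 of 79 and 1 of 41 regions, against 13% of all.

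IRF8 was common at the listed genes too. All 13 homeostatic and 18 of 20 further genes had an adult consensus region, next to 8 of 10 members and 50.5% of all windows, and at P9 the numbers were 6 of 13, 5 of 20 and 2 of 10, next to 6.99%. The trend was called at 12 of 13 homeostatic and 16 of 18 further genes tested, next to 3 of 9 members and 60.9% of all windows. The median gene had a mean of 6 adult regions per library in the homeostatic list, 2.67 in the further list, 1.17 among the members and 1 over all genes. No test of these differences between lists was made.

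**Figure D5:**
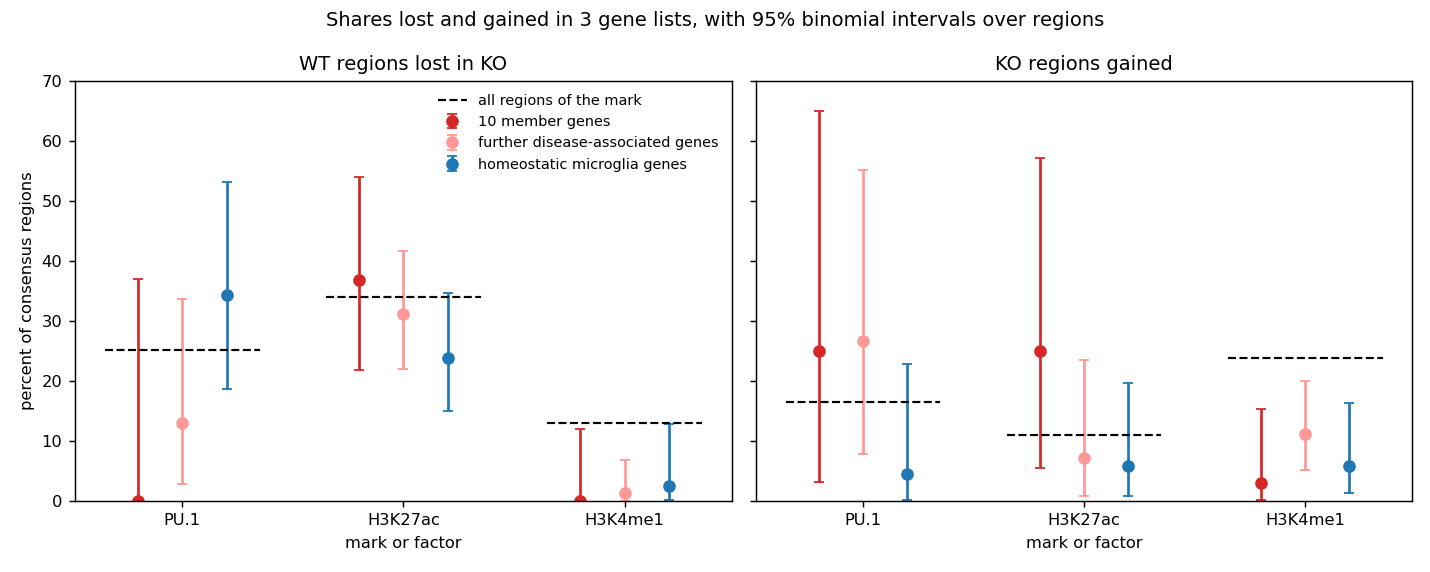
Percent of consensus regions (vertical axis) lost (left) and gained (right) in KO for PU.1, H3K27ac and H3K4me1 in 3 gene lists; points are shares, bars exact 95% binomial intervals over regions, dashed lines the share over all regions. For lost H3K27ac the member interval runs from 21.8 to 54.0% and spans the dashed line at 34%.

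By presence or absence of any peak of the assay in the window across the 25 libraries, the member most nearly matched by a listed gene, among those with at most 3 equal matches, was Itgax, which matched Fcrls, Tgfbr1 and Tmem119 in 23 libraries. Lpl matched Ch25h in 22, Clec7a matched Ank in 22, Cst7 matched Igf1 in 22 and Gpnmb matched Sall1 in 21. Spp1 was matched least, by Ch25h, Lyz2 and Sall1 in 19 libraries. Apoe, Trem2, Tyrobp and Axl had more equal matches than are named. These libraries share targets and region totals, so the numbers are descriptions.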

How the data were processed

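CUT&RUN peak lists of 25 libraries were used; the 4 IgG libraries were not analysed here. The authors called peaks per library with MACS (2.2.7.1 for IRF8 and PU.1, 2.2.6 for histone marks) against an IgG library, with a maximal gap of 640 bp for IRF8, PU.1 and H3K27ac and a q-value of 0.01 (0.05 for PU.1 replicate 2 in both genotypes, against another control), per the file headers. For H3K4me1 they made broad calls (p-value 0.1 for the listed regions and 0.01 for the strong parts within them, minimum length 1000 bp), per the file headers; its q-value column was not calculated and was not used. Each deposited peak has a pileup (fragment coverage signal), a −log10 p-value, a −log10 q-value and a fold enrichment over control, all values of the authors, per the file headers. The submitters' processing notes name mm10, bcl2fastq, Trim Galore, Bowtie2, deepTools and MACS2. Crosslinking preceded sorting for transcription factors, per the labels' protocols. Of 7 P9 libraries made 4 are given, and of 3 KO H3K27ac libraries 2, per the labels. Macrophage groups follow the titles, since their source label says microglia.

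From these lists, each chromosome, start and end was counted once. Windows came from GENCODE vM21 (GRCm38.p6, whose chromosome lengths hold every peak), for protein-coding genes and polymorphic pseudogenes, as which Clec7a is annotated. Overlap meant at least 1 bp. Analyses used Python 3.11.15, numpy 2.4.6, scipy 1.17.1, matplotlib 3.10.9 and pysam 0.24.0. The trend test (4200 assignments, 10 libraries, genes with a region in at least 2) was tested on simulated data. Alternatives were windows of 5 kb, a −log10 p-value of at least 10, stricter consensus and absence rules, the region centre for motifs, batch 1 alone, a replicate block and leaving out each library. Members and lists were chosen with earlier results of these data known. All members are named, and up to 4 genes of each further list with the most lost H3K27ac regions. The further disease-associated genes were Cd9, Cd63, Ctsb, Ctsd, Ctsl, Ctsz, Lgals3, Cd68, Fth1, B2m, Lyz2, Csf1, Ccl6, Timp2, Ank, Serpine2, Cd52, Igf1, Fabp5 and Ch25h; the homeostatic genes P2ry12, P2ry13, Tmem119, Cx3cr1, Siglech, Sall1, Gpr34, Olfml3, Fcrls, Selplg, Cst3, Mertk and Tgfbr1; 1 more gene of the written lists is not reported here and is in no count. Sequences shown are the strongest adult IRF8 site of each gene, up to 6, Clec7a being shown by its promoter. The Spp1 promoter and the Apoe KO PU.1 site were added to these.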

Additional observations from a re-analysis of the deposited data

Results flagged for a closer look

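In 4 windows 1 of the 4 P9 IRF8 libraries stood away from the other 3, which were equal. Trem2 had 0 regions in replicate 2 and 1 in each of the others. Axl had 2 in replicate 2 and 1 in each of the others. Itgax had 2 in replicate 3 and 0 in the others, and Gpnmb 1 in replicate 3 and 0 in the others. Replicate 3 had the most IRF8 regions of the P9 libraries (2068) and replicate 2 the fewest (1168). With counts this small any single differing library is marked, so a mark alone does not make a library unusual.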

How the results depend on the processing

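Among values with a test call, no direction changed. The adult minus macrophage difference at Clec7a, -0.33 regions as reported and not called, was 0.50 without adult replicate 3 and 0.17 without macrophage replicate 1. With windows of 5 kb, 5 members had an adult IRF8 consensus region (38.9% of all windows), the trend was called at 5215 genes, 0 members had all macrophage libraries above the adult ones (0.937% of windows), and 0% of KO H3K4me1 regions were gained (23.8% of all). With peaks of −log10 p of at least 10, the trend was called at 2911 genes, 0% of the members' adult IRF8 regions overlapped H3K4me1 (0.502% of all; no H3K4me1 region that both WT libraries share was left in the windows), 0% of KO PU.1 regions were gained (19.6% of all), and H3K27ac loss was 8 of 15 (50.7% over all regions): Spp1 2 of 2, Axl 3 of 5, and 1 of 1 each at Lpl, Trem2 and Gpnmb. With a peak required in all libraries, 5 members had an adult (34% of all windows) and 1 a P9 IRF8 region (2% of all), and PU.1 and H3K4me1 overlapped 87.5% and 100% of the adult IRF8 regions (40.1% and 94.2% of all). With absence from the other genotype's consensus as the rule, H3K27ac loss was 76.3% (all regions 78.4%), H3K4me1 loss 13.8% (all 30.3%) and gain 26.5% (all 44.4%); counting a WT region as lost when KO peaks covered less than the larger part of it gave 71.1% for H3K27ac (all 68.8%). At region centres the ETS core was in 62.5% of the members' WT PU.1 regions (39.9% of all), against 12.5% at summits (25.6% of all). In batch 1 alone, 2 libraries against 2, 5 members had all adult libraries above the macrophage ones (14.1% of all windows) and 2 all below (6.64%).

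Ranges with 1 library left out are given for the members, with those over all windows or regions in brackets. The trend was called at 1 to 5 members (1658 to 9470 genes, 12.4 to 76.5%). A consensus IRF8 region was at 5 to 8 members in adults (34 to 46.7%), 2 to 2 at P9 (4.75 to 6.02%), 5 to 5 at P14 (18.9 to 26.4%) and 4 to 6 in macrophages (16.1 to 37%). Adult libraries lay above macrophages at 1 to 4 (7.56 to 12.9%) and below at 1 to 2 members (1.24 to 5.17%). Overlap was 53.3 to 87.5% for PU.1 (29.8 to 44.1%), 80 to 93.3% for H3K27ac (83.7 to 89.6%) and 93.3 to 100% for H3K4me1 (91.4 to 94.6%). Loss was 0 to 25% for PU.1 (35.6 to 58.7%), 36.8 to 71.1% for H3K27ac (37.3 to 72.9%) and 6.90 to 12.2% for H3K4me1 (19 to 44.1%). Gain was 25 to 46.7% for PU.1 (24.3 to 58.2%), 25 to 45.2% for H3K27ac (14.1 to 55.9%) and 14.7 to 27.1% for H3K4me1 (32.6 to 56%). The cause of these shifts was not tested, except that fewer libraries or regions enter.

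Correlations of same-numbered libraries ran from -0.101 to 0.193 and exceeded 0.1 throughout in no pair of groups, so the numbers were not taken to pair them. Adult and macrophage libraries deviated by batch instead (0.06 to 0.192 within a batch, -0.143 to -0.103 across). When these were exchanged within batches only, a setting chosen after seeing the data, Apoe and Itgax had an exact permutation p of 0.167, the smallest possible there. With the replicate block the trend was called at 0 genes and 0 members (smallest adjusted p 0.0837 over 216 assignments, 5184 genes at an unadjusted p under 0.05). Adjusted p over the alternatives ran from 0.0228 to 0.134 for Apoe, 0.0147 to 0.0837 for Tyrobp and 0.0162 to 0.0837 for Axl, each highest with the block. PU.1 libraries of 1 number share their control and threshold: within number 1, 4 of 12 member regions of the WT library had no KO peak (66.4% of all), and within number 2, 2 of 10 (57.5%), also added after seeing the data. Of the member regions of the KO library, 7 of 15 had no WT peak within number 1 (53.6% of all) and 4 of 12 within number 2 (67.7%). For PU.1 and the marks, 2 pairs allow no test at the threshold.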
